A study of Mus musculus with 22 samples.

Results

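The ADAM genes encode membrane proteins with a disintegrin and a metalloproteinase domain. The count table of the mouse testes held 33 of them among 17931 gene symbols, chosen as every symbol that starts with Adam followed by a digit, which leaves the ADAMTS genes out. They were divided by known role. The 20 genes called sperm-surface here have transcripts made in germ cells of the testis. A place on the sperm surface was not checked for each protein, and that of *Adam1a* is known from the endoplasmic reticulum. Another 11 genes are expressed outside the germ line. They are called widely expressed here, although some are known mainly from 1 tissue (*Adam11*, *Adam22* and *Adam23* from the nervous system, *Adam8* from myeloid cells). The last 2 genes, *Adam7* and *Adam28*, are of neither list and are known from the epididymis and from lymphocytes. Transcripts of whole testes were compared between 3 WT and 3 MLX KO males, all aged 7 months. MLX is a transcription factor that binds DNA as a dimer with partners such as MondoA and ChREBP. The KO males carried a constitutive deletion of *Mlx* in every tissue, on an allele made in 129S4 ESCs, so the germ cells and the somatic cells around them lacked the intact gene alike. The WT males were littermates of matched age, known to be fertile, and the labels number the libraries as pairs 1 to 3. Testes were not fractionated, so fewer cells of a type and less RNA per cell cannot be told apart in any value given here.

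ADAM proteins fall into those that cut other membrane proteins and those that bind. The sheddases ADAM10 and ADAM17 release the outer part of receptors, ligands and cytokines such as Notch and TNF. The ADAM proteins of sperm are known for their part in fertilization. ADAM1A, ADAM1B, ADAM2 and ADAM3 are assembled into complexes in the endoplasmic reticulum. Of these proteins ADAM1B, ADAM2 and ADAM3 are carried to the sperm surface and trimmed as sperm mature. Male mice without ADAM2 or ADAM3 make sperm that fail to enter the oviduct. ADAM11, ADAM22 and ADAM23 lack an active protease site and bind secreted LGI proteins, mostly in the nervous system.

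Upstream sequence is shown here for genes of both groups. The 250 bases before an annotated start site were found in RefSeq (GRCm38.p6, the coordinates of mm10) for 17 of the 33 genes. Those shown are the genes of each group with the lowest adjusted p in the genotype comparison and an entry in that table, in lower case from 5′ to 3′ on the gene's strand, with CpG dinucleotides in capitals. They lie at chr12:113489315-113489564 (plus strand) for *Adam6b*, chr12:113543658-113543907 (plus strand) for *Adam6a*, chr8:40751958-40752207 (plus strand) for *Adam25*, chr1:63445641-63445890 (plus strand) for *Adam23* and chr9:70678732-70678981 (plus strand) for *Adam10*. The first 3 are sperm-surface genes and the last 2 are widely expressed. The windows of the last 2 run into the annotated gene, which starts at chr1:63445717 for *Adam23* and chr9:70678944 for *Adam10*. Windows of *Adam8*, *Adam19* and *Adam22*, not printed, also lie partly or wholly inside the gene, while those of the sperm-surface genes lie outside it.
Adam6b: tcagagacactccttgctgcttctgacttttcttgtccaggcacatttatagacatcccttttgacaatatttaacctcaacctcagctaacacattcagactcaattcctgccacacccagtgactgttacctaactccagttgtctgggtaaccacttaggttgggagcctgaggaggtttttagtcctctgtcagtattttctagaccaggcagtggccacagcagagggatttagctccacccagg
Adam6a: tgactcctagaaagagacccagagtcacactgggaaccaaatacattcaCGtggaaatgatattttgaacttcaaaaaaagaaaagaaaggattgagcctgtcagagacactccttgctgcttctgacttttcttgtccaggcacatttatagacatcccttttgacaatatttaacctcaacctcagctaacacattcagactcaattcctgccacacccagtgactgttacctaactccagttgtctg
Adam25: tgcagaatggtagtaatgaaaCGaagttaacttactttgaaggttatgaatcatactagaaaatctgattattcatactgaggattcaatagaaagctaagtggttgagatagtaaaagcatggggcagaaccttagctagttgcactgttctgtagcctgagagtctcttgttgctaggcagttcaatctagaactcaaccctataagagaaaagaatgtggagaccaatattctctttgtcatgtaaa
Adam23: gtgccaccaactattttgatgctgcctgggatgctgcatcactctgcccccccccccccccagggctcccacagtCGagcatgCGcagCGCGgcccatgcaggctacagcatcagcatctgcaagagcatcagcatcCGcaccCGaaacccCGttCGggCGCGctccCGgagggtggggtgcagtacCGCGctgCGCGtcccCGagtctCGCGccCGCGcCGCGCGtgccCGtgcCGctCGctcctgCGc
Adam10: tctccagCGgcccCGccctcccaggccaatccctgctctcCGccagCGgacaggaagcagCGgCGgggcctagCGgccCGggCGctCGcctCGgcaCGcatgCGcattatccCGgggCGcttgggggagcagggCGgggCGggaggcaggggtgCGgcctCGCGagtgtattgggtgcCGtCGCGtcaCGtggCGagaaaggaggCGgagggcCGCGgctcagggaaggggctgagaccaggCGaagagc

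The capitals are sparse in the first 3 sequences and dense in the last 2. *Adam6b* had 0 CpG dinucleotides, *Adam6a* and *Adam25* had 1 each, *Adam23* had 27 and *Adam10* had 29. Over the 10 sperm-surface genes with an entry, G and C made up 33.2% to 50% of the bases (median 38.8%), and the count of CpG ran from 0 to 4 with a median of 1. All 10 have their coding sequence in 1 exon. The sperm-surface genes with several coding exons, *Adam2*, *Adam3*, *Adam5*, *Adam18* and *Adam32*, had no entry, so these values do not cover them. Over the 9 start sites of 7 widely expressed genes, of which 3 belong to *Adam19*, G and C made up 50% to 74% (median 62%), and CpG ran from 4 to 29 with a median of 17. The medians over all 32851 start sites of the same annotation were 52.4% and 6, between those of the 2 groups. *Adam6a* and *Adam6b*, which lie on the same strand, share an unbroken run of 149 bases in these windows, and *Adam25* and its neighbour *Adam20* were 93.7% identical over theirs.

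**Figure D1:**
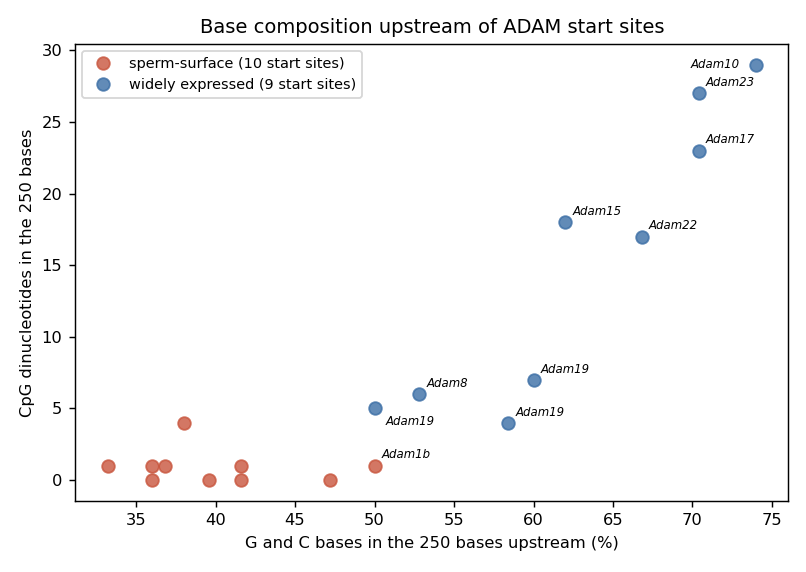
Each point is the 250 bases upstream of 1 annotated start site, with the percentage of G and C on the x axis and the number of CpG dinucleotides on the y axis. The 10 sperm-surface start sites lie at 50% G and C or less with at most 4 CpG, and the 9 widely expressed start sites at 50% or more with at least 4.

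Motifs were searched on both strands of these windows as exact letters, so *Adam2*, *Adam3*, *Adam5*, *Adam18* and *Adam32*, without an entry, were not searched. CACGTG, the E-box that MLX dimers and many other basic helix-loop-helix factors can bind, was in 1 of the 10 sperm-surface genes (*Adam6a*, first base at position -203 from the start site) and in 2 of the 7 widely expressed genes (*Adam10* at -64 and 1 start site of *Adam19* at -130). Over all start sites of the annotation, 6.02% held it. This share and those below count start sites, whereas the members are counted as genes, and *Adam19* has several start sites. TGACGTCA, the cAMP response element read by CREM in spermatids, was in none of the 17 genes and in 1.55% of all start sites. TGACG, which lies inside TGACGTCA, was in 0 of 10 sperm-surface genes and in 1 of 7 widely expressed genes (*Adam10* at -67, where it overlaps the CACGTG by 2 bases), against 17.8% of all start sites. A match is a match of letters and says nothing of binding.

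The libraries held between 16674678 and 19742726 counts. The *Mlx* gene itself was counted 128, 96 and 98 times in WT and 94, 109 and 102 times in KO (LFC -0.18, adjusted p = 0.326). The deletion removes the exons of the DNA-binding domain, and a count over the whole gene does not check the labels. Levels are given as CPM, read counts scaled to a library size adjusted by TMM. The quasi-likelihood test of edgeR was run over 14640 genes, a gene was called lower or higher in KO at an adjusted p under 0.05, and LFC is the log2 fold change of KO against WT. At that threshold 20.6% of all genes tested were lower and 24.8% higher, so that 45.4% of genes passed in either direction, and the median LFC of all genes was 0.025. With library sizes alone in place of TMM, 5343 genes were higher and 1268 lower, against 3634 and 3015 with TMM.

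In WT testes the sperm-surface genes had the higher levels per length of transcript. Divided by exon length, their WT level ran from 6.48 CPM per kb (*Adam26b*) to 556 CPM per kb (*Adam3*), with a median of 31.1. The 11 widely expressed genes ran from 0.109 (*Adam33*) to 7.00 (*Adam10*), with a median of 1.73. *Adam3* was followed by *Adam5* at 519 ± 9.05, *Adam32* at 367 ± 7.37 and *Adam2* at 205 ± 5.26 CPM per kb (SD, n = 3), and these 4 levels did not overlap between WT libraries. Below them the order was less sharp: *Adam1a* (74.0 ± 1.68) and *Adam18* (68.5 ± 4.11) overlapped, as did each gene with its next neighbour from *Adam4* (29.6 ± 1.64) down to *Adam21* (18.0 ± 0.704). *Adam26b* at 6.48 ± 0.105 CPM per kb lay among the most abundant widely expressed genes, *Adam10*, *Adam17* and *Adam9*. *Adam2*, *Adam3*, *Adam5* and *Adam32* together took between 75.9% and 77.2% of the counts of all 20 sperm-surface genes in every library.

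**Figure D2:**
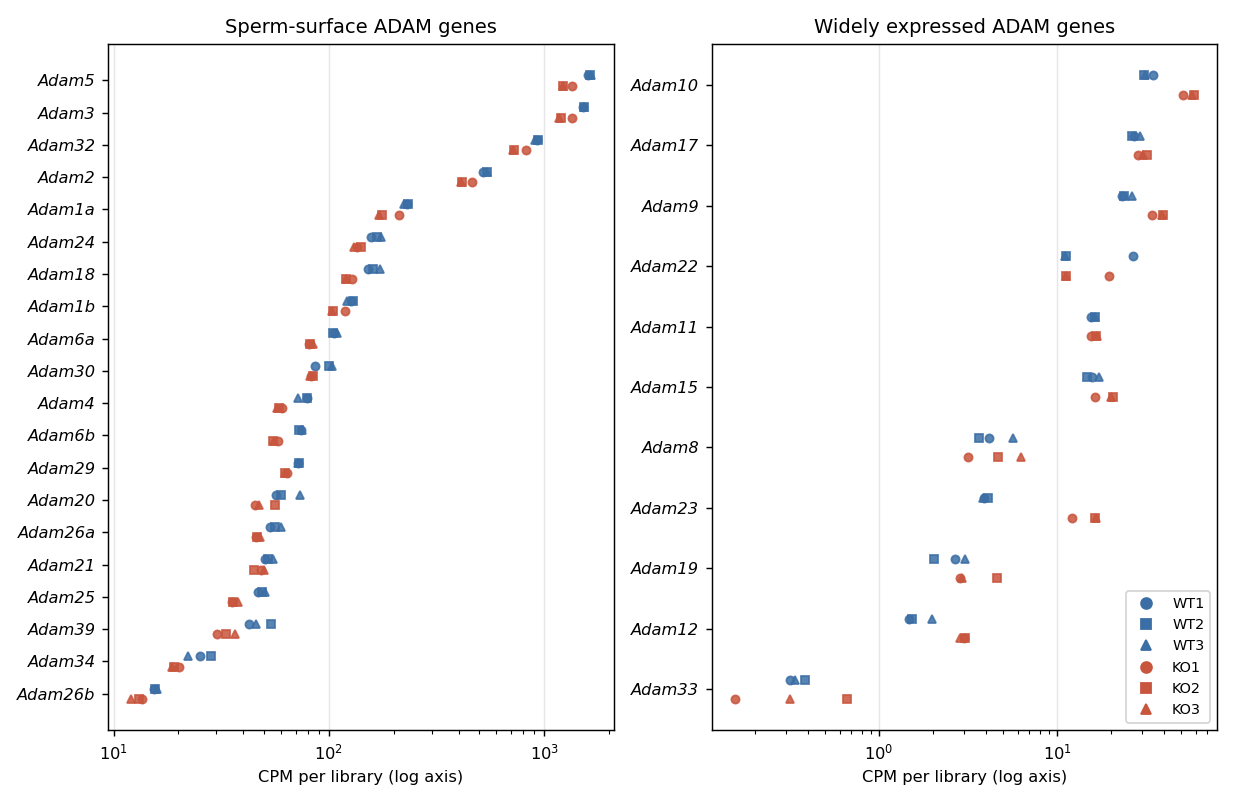
Points are CPM of 1 library on a log axis for the 20 sperm-surface genes on the left and the 11 widely expressed genes on the right, in WT (blue) and KO (red), with the pair number given by the shape. The KO points lie left of all WT points in each of the 20 sperm-surface genes, and right of all WT points in *Adam10*, *Adam9*, *Adam23* and *Adam12*.

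All 20 sperm-surface genes had enough counts to be tested. Of these, 19 were lower in MLX KO testes and 0 were higher, against 20.6% of all genes tested that were lower. At an unadjusted p under 0.05, and in DESeq2, 0 were higher as well. The remaining gene, *Adam21*, had an LFC of -0.14 (95% interval -0.27 to -0.01, adjusted p = 0.0747). The median LFC of the 20 genes was -0.31 (a change of -19.2%), with a range from -0.50 (*Adam39*) to -0.14 (*Adam21*). In each of the 20 genes every KO library lay below every WT library, as it did in 25.9% of all genes tested, and the KO library was lower in 3 of 3 pairs, as it was in 31.7% of all genes. The summed level of the 20 genes was 5919.8, 6079.7 and 6057 CPM in WT and 5157, 4687 and 4637 CPM in KO. The first KO library thus stood nearest to WT, and the WT and KO sums did not overlap. The mean was 6019 ± 86.5 CPM in WT and 4827 ± 287 CPM in KO (SD, n = 3), a difference of -19.8%. With library sizes alone in place of TMM, 12 of the 20 genes passed as lower and their median LFC was -0.17, where that of all genes was 0.16.

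The genes of the fertilin and cyritestin complexes were all lower. *Adam2* encodes fertilin beta, the partner that ADAM1A and ADAM1B each need. Its level was 517, 541 and 539.9 CPM in WT and 463, 413 and 409.8 CPM in KO. The lowest WT library was above the highest KO library, and the LFC was -0.31 (SE 0.06, adjusted p = 0.00117). *Adam1a* encodes the fertilin alpha of the endoplasmic reticulum and measured 229, 234 and 223 CPM in WT and 211, 176 and 170.3 CPM in KO. The gap between the groups was small, with the first KO library close to WT, and the LFC was -0.30 (SE 0.07, adjusted p = 0.00617). *Adam1b* encodes the fertilin alpha found on sperm and measured 126, 129 and 122 CPM in WT against 119, 105 and 103 CPM in KO. Its LFC of -0.20 (SE 0.06, adjusted p = 0.0168) did not pass without the second WT library (-0.19, adjusted p = 0.0677), the second KO library (-0.17, adjusted p = 0.0786) or the third KO library (-0.16, adjusted p = 0.0828). *Adam1a* and *Adam1b* share 35% and 32.4% of their 50-base windows, the length of the reads, so how reads were divided between them is uncertain. *Adam3*, the gene of cyritestin, was at 1514, 1529.8 and 1523 CPM in WT and at 1341, 1195 and 1168 CPM in KO. WT libraries were nearly equal (1522 ± 7.70), KO libraries spread more (1234 ± 93.0), and the LFC was -0.30 (SE 0.06, adjusted p = 0.0018).

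*Adam5*, *Adam18* and *Adam32* encode further germ cell ADAM proteins and lie beside *Adam3*. *Adam5* measured 1592, 1633 and 1646 CPM in WT and 1352, 1224 and 1223 CPM in KO (LFC -0.36, SE 0.05, adjusted p = 0.000433). *Adam32* measured 924, 939 and 902 CPM in WT and 824, 724 and 719.7 CPM in KO (LFC -0.29, SE 0.06, adjusted p = 0.00264). In both genes the first KO library was the highest of the 3 and still below WT. *Adam18* fell from 153, 160.4 and 172 CPM in WT to 128, 119.9 and 119.8 CPM in KO (LFC -0.40, SE 0.06, adjusted p = 0.000246).

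*Adam6a* and *Adam6b*, with the upstream windows printed above, encode copies of a protein found in complexes with ADAM2 and ADAM3 and lie in the immunoglobulin heavy chain locus. *Adam6b* measured 74.2, 72.9 and 74.7 CPM in WT and 57.8, 54.8 and 55.4 CPM in KO. Its groups were tight and well apart, and its adjusted p of 0.000105 was the lowest of the sperm-surface genes (LFC -0.40, SE 0.05). *Adam6a* measured 106, 105 and 109 CPM in WT and 81.2, 81.4 and 84.6 CPM in KO (LFC -0.37, SE 0.05, adjusted p = 0.000126). Here the KO libraries were as close to each other as the WT libraries were. The 2 transcripts share 29.5% (*Adam6a*) and 32.6% (*Adam6b*) of their 50-base windows, so they carry the same uncertainty as *Adam1a* and *Adam1b*.

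Most other sperm-surface genes are testis ADAM genes whose whole coding sequence lies in 1 exon, as it does in 15 of the 20 genes. The tandem genes *Adam24*, *Adam25*, *Adam20* and *Adam39* stand in this order on the plus strand of chromosome 8. *Adam24*, whose protein has been linked to the block to polyspermy, measured 156, 168 and 175 CPM in WT and 135, 140.4 and 131 CPM in KO (LFC -0.30, SE 0.05, adjusted p = 0.00136). *Adam25* fell from 46.8, 49.0 and 50.7 CPM to 35.5, 35.7 and 37.8 CPM (LFC -0.43, SE 0.06, adjusted p = 0.000258), with KO libraries well below WT. *Adam39* fell from 42.4, 53.7 and 46.0 CPM in WT to 30.2, 33.4 and 36.6 CPM in KO (LFC -0.50, SE 0.09, 95% interval -0.71 to -0.30, adjusted p = 0.00147), and without the second WT library its LFC was -0.41. *Adam20* was more variable, at 56.9, 59.8 and 73.4 CPM in WT and 45.1, 56.0 and 47.3 CPM in KO (LFC -0.36, SE 0.10, adjusted p = 0.0137), and was not past the threshold without the third WT library (LFC -0.24, adjusted p = 0.0541). Between 32.3% and 37.1% of the 50-base windows of *Adam20*, *Adam25* and *Adam39* also occur in another gene, mostly in each other, so their separate values are uncertain in the same way, while *Adam24* shares none.

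A second group on chromosome 8 holds *Adam26b*, *Adam26a* and *Adam34* on the minus strand. *Adam26a* fell from 53.4, 56.0 and 60.0 CPM to 45.7, 46.3 and 47.9 CPM (LFC -0.28, SE 0.06, adjusted p = 0.00306). *Adam34* fell from 25.3, 28.3 and 22.2 CPM to 20.1, 19.0 and 18.6 CPM (LFC -0.39, SE 0.09, adjusted p = 0.00619). *Adam26b*, the least abundant of the 20 genes, measured 15.3, 15.6 and 15.8 CPM in WT and 13.6, 13.1 and 12.1 CPM in KO (LFC -0.27, SE 0.09, adjusted p = 0.0237). In all 3 genes the groups stood apart, but the call on *Adam26b* was the least secure: DESeq2 gave an adjusted p of 0.0591, and edgeR's adjusted p was 0.0504, 0.0625 and 0.0655 when WT library 1, 2 or 3 was left out, and 0.0583 and 0.104 when KO library 2 or 3 was left out. *Adam26a* and *Adam26b* share much of their sequence, counted in 50-base windows, with another gene (37.6% and 37.3%), and *Adam34* 28.2%.

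The remaining genes of the group lie elsewhere. *Adam4* fell from 79.1, 79.5 and 72.0 CPM to 60.7, 58.7 and 57.5 CPM (LFC -0.38, SE 0.06, adjusted p = 0.000314), and 12.7% of its windows are shared with *Gm4787*. *Adam29*, which encodes a protein without an active protease site, fell less, from 71.9, 73.0 and 71.9 CPM to 64.2, 62.4 and 62.4 CPM (LFC -0.20, SE 0.05, adjusted p = 0.00544). The decrease of *Adam29* was small but larger than the spread in either group. *Adam30* measured 86.2, 100.6 and 103 CPM in WT and 83.0, 84.8 and 82.1 CPM in KO (LFC -0.21, SE 0.07, adjusted p = 0.0202). Its first WT library lay just above the KO libraries, and the call was lost without WT library 2 (LFC -0.19, adjusted p = 0.0819), WT library 3 (LFC -0.17, adjusted p = 0.0857) or KO library 3 (LFC -0.20, adjusted p = 0.0621). *Adam21*, the neighbour of *Adam4*, measured 50.7, 52.3 and 54.8 CPM in WT and 48.2, 45.1 and 49.8 CPM in KO, with groups that stood close but did not overlap.

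Gene structure did not separate the sizes of these differences. The 15 genes with their coding sequence in 1 exon had a median LFC of -0.30 with 14 lower, and the 5 genes with 19 to 22 coding exons (*Adam2*, *Adam3*, *Adam5*, *Adam18* and *Adam32*) a median of -0.31 with 5 lower. Without the 4 most abundant genes the summed level of the other 16 was 1418 ± 39.5 CPM in WT and 1142 ± 32.2 CPM in KO, a difference of -19.5%. Of the 20 genes, 11 share at least 10% of their 50-base windows with another gene and 9 share none.

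**Figure D3:**
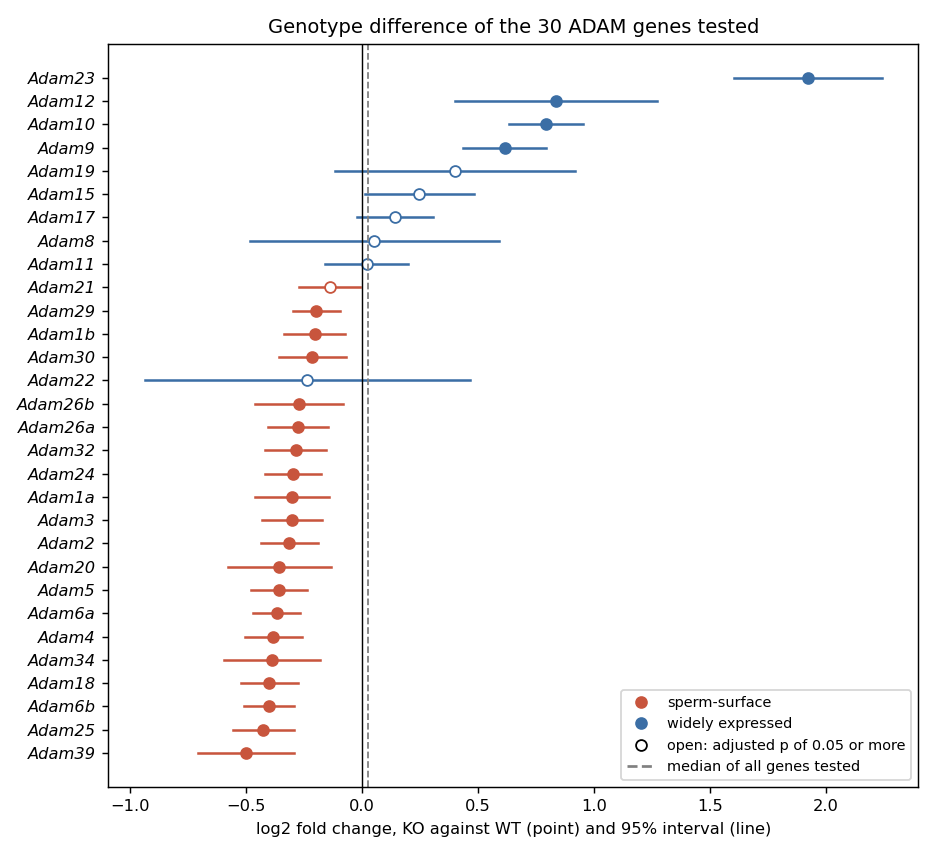
Points are the LFC of KO against WT and lines its 95% interval for the 30 ADAM genes tested, in order of size, with filled points past an adjusted p of 0.05 in edgeR's quasi-likelihood test. The sperm-surface genes (red) lie between -0.50 and -0.14, and the 4 filled widely expressed genes (blue) between 0.61 and 1.92.

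The widely expressed genes differed in the other direction or were not separated. Of the 11 genes, 10 were tested. Of these 4 were higher in KO (*Adam23*, *Adam10*, *Adam9* and *Adam12*), against 24.8% of all genes tested, and 0 were lower, at an unadjusted p under 0.05 or in DESeq2 as well. The count of 4 in 10 is not far from this background. The median LFC was 0.32, and it was 0.17 without the second KO library and 0.44 without the first. In 4 genes every KO library lay above every WT library, against 30.3% of all genes, and in the other 6 the groups overlapped. The KO library was the higher one in 3 of 3 pairs in 6 of the 10 genes, against 36.9% of all genes. Their summed level was 156, 135 and 146 CPM in WT and 186, 208 and 204 CPM in KO, all KO libraries above all WT libraries (145.6 ± 10.5 against 199 ± 11.8 CPM, SD, n = 3). The sum of the sperm-surface genes was 38.0, 45.1 and 41.4 times that of the widely expressed genes in WT and 27.7, 22.5 and 22.7 times in KO.

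*Adam23* had the largest difference of the family. It was counted 74, 64 and 68 times in WT and 234, 294 and 311 times in KO. Every KO library was far above every WT library, at 12.1, 16.3 and 16.5 CPM against 3.90, 4.07 and 3.83 CPM. Its mean rose from 3.94 ± 0.121 to 14.9 ± 2.48 CPM, 3.79-fold in the fit (LFC 1.92, SE 0.14, 95% interval 1.60 to 2.24, adjusted p = 6.06e-06). ADAM23 binds LGI proteins and integrins and has no active protease site. Of the 4 LGI genes, only *Lgi4*, known as the ligand that Schwann cells use in myelination, was past the threshold: it was counted 44, 58 and 75 times in WT and 144, 164 and 171 times in KO (LFC 1.33, SE 0.19, adjusted p = 0.000326). The other ligand genes gave LFC from 0.36 to 0.68 on 5 to 26 counts a library and did not pass. *Adam11* and *Adam22*, whose proteins also bind LGI proteins, did not pass either (LFC 0.020 and -0.24). Which ADAM protein LGI4 binds in the testis was not tested.

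The sheddase gene *Adam10*, with the CpG-rich upstream window printed above, was counted 659, 487 and 551 times in WT and 993, 1070 and 1087 times in KO. In CPM it stood at 34.7, 31.0 and 31.1 in WT and at 51.2, 59.2 and 57.5 in KO, 1.73-fold higher (LFC 0.79, SE 0.07, adjusted p = 2.15e-05). The groups were far apart beside the spread within either. *Adam17*, the TNF sheddase, had overlapping groups, at 27.2, 26.3 and 29.1 CPM in WT and 28.4, 32.1 and 30.6 CPM in KO. Its LFC was 0.14 (95% interval -0.02 to 0.30, adjusted p = 0.139), and without the first KO library it was 0.19 (adjusted p = 0.0457). An exon of *Adam17* overlaps *Iah1* on the opposite strand, and the sources used here do not say whether counting used strand.

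*Adam9*, a protease gene of many tissues, was counted 437, 372 and 470 times in WT and 660, 710 and 733 times in KO. It rose 1.53-fold, from 24.4 ± 1.85 to 37.4 ± 2.89 CPM (LFC 0.61, SE 0.08, adjusted p = 0.000185). *Adam12*, known from muscle, bone and mesenchymal cells, had 28, 24 and 35 counts in WT against 58, 55 and 54 in KO (LFC 0.83, SE 0.20, adjusted p = 0.0056). The counts of *Adam12* were low but did not overlap, and DESeq2 with the pair as a block gave an adjusted p of 0.100 for it (LFC 0.82). *Adam15*, a gene of endothelial and epithelial cells, measured 15.8, 14.8 and 17.3 CPM in WT and 16.2, 20.6 and 20.2 CPM in KO. Its first KO library lay among the WT libraries, and its LFC of 0.25 (95% interval 0.01 to 0.48, adjusted p = 0.0790) was 0.35 without that library (adjusted p = 0.00668).

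The other tested genes were not separated by genotype. *Adam11*, expressed mostly in the nervous system, measured 15.6, 16.3 and 16.4 CPM in WT and 15.4, 16.7 and 16.8 CPM in KO, with an LFC of 0.020 whose 95% interval of -0.16 to 0.20 lies below the LFC of *Adam9* and *Adam10*. *Adam8*, a gene of myeloid cells, had 79, 57 and 101 counts in WT against 61, 84 and 118 in KO (LFC 0.052, 95% interval -0.48 to 0.59). *Adam19*, known for its part in heart development, had 51, 32 and 54 counts in WT against 55, 83 and 55 in KO (LFC 0.40, 95% interval -0.12 to 0.92). The second KO library carried the difference in *Adam19*. *Adam22*, the receptor gene for LGI1 in the brain, had 509, 176 and 197 counts in WT against 378, 204 and 212 in KO. The libraries of pair 1 stood above the other 4 in both genotypes, and the LFC of -0.24 (95% interval -0.94 to 0.46, adjusted p = 0.576) was 0.33 without the first WT library (adjusted p = 0.260). *Adam33* had 6 counts in each WT library and 3, 12 and 6 in KO, too few to be tested.

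The 2 genes of neither list were also too low for a test. *Adam7*, a gene of the epididymis, had 1 count in the third WT library and 0 in the other 5. *Adam28*, known from lymphocytes and the epididymis, had 7, 2 and 7 counts in WT against 2, 1 and 4 in KO. The deposited table holds 5 of 6 listed epididymal marker genes, and their summed level was 0.0636 to 0.387 CPM in the 6 libraries. *Adam36*, *Adam37*, *Adam38* and *Adam40*, listed among the sperm-surface genes by name, have no row in the table and were not analysed here.

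Neighbouring ADAM genes did not all share a direction. Of the 20 sperm-surface genes, 12 lie on chromosome 8 (mm10). In 1 run of 414.8 kb (chr8:24602246-25017040, all on the minus strand) *Adam18*, *Adam3*, *Adam5*, *Adam32* and *Adam9* follow each other. The first 4 were lower in KO, with LFC from -0.40 to -0.29, and *Adam9* was higher with an LFC of 0.61 (95% interval 0.44 to 0.79), although only 692 bp separate *Adam9* from *Adam32*. The interval of *Adam32* ran from -0.42 to -0.16. The other runs of tested genes held sperm-surface genes alone, all with a negative LFC: *Adam24*, *Adam25*, *Adam20* and *Adam39* in 151.8 kb of chromosome 8, *Adam26b*, *Adam26a* and *Adam34* in 145.7 kb of the same chromosome, *Adam6b* and *Adam6a* in 56.85 kb and *Adam4* and *Adam21* in 149 kb of chromosome 12, and *Adam1b* and *Adam1a* in 21.6 kb of chromosome 5.

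**Figure D4:**
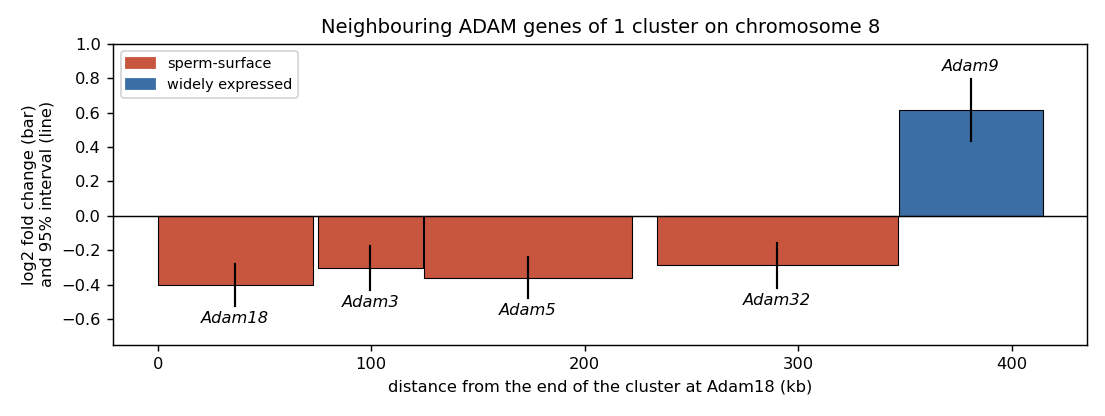
Each bar spans 1 gene of the run on chromosome 8, with distance from its end at *Adam18* in kb on the x axis and LFC of KO against WT on the y axis, and the line is the 95% interval. The 4 sperm-surface genes lie below 0, and *Adam9* at the other end of the run lies above 0.

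Genes that act in the maturation of sperm ADAM proteins were mostly lower as well. Of 12 listed genes, *Pmis2* has no row, and of the 11 tested 8 were lower and 1 was higher, with a median LFC of -0.23, against 20.6% lower and 24.8% higher over all genes tested. Counted with the sheddase regulators and LGI genes described here, 9 partner genes were lower, and 5 with library sizes alone. *Clgn*, the gene of the chaperone calmegin that folds ADAM1A, ADAM1B and ADAM2, measured 798, 819 and 783 CPM in WT and 714, 627 and 615 CPM in KO (LFC -0.30, SE 0.06, adjusted p = 0.00253). *Calr3*, the gene of calsperin, which acts on ADAM3, measured 145, 147 and 145 CPM in WT and 123, 112 and 116 CPM in KO (LFC -0.31, SE 0.05, adjusted p = 0.000493). The groups did not overlap in either chaperone gene. *Pdilt*, the gene of a testis disulfide isomerase that works with calsperin, had an LFC of -0.19, *Ace* -0.21, *Cmtm2a* -0.31 and *Cmtm2b* -0.23. *Prss37*, whose loss leaves sperm without mature ADAM3, fell with an LFC of -0.40 (SE 0.05, adjusted p = 0.000134). *Rnase10*, better known from the epididymis, had 75, 78 and 75 counts in WT against 50, 43 and 61 in KO (LFC -0.68, SE 0.18, adjusted p = 0.00991). *Ly6k*, the gene of a GPI-anchored partner of TEX101, was the 1 higher gene, with an LFC of 0.16 (SE 0.06, adjusted p = 0.0460) and libraries that overlapped between the groups. The other 2 tested genes did not pass.

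Genes that regulate the sheddases were mostly higher. Of 16 listed genes 15 were tested, of which 10 were higher and 1 was lower, with a median LFC of 0.71, against 24.8% higher and 20.6% lower over all genes tested. *Rhbdf1* and *Rhbdf2*, the genes of the iRhom proteins that carry ADAM17 to the cell surface, had LFC of 0.94 (SE 0.24, adjusted p = 0.0087) and 0.86 (SE 0.12, adjusted p = 0.000242). *Rhbdf2* was counted 145, 96 and 120 times in WT and 242, 243 and 215 times in KO. *Frmd8*, which encodes a protein that stabilises iRhom, was the 1 lower gene (LFC -0.19, SE 0.05, adjusted p = 0.00572). Of the 6 tetraspanin genes whose proteins guide ADAM10, 4 were higher: *Tspan5* (LFC 0.34), *Tspan14* (0.56), *Tspan15* (0.82) and *Tspan17* (0.87). *Tspan33* did not pass (LFC 0.0027, adjusted p = 0.988), and *Tspan10* had too few counts to be tested. *Furin*, the gene of a protease that removes ADAM prodomains, had an LFC of 0.92 (SE 0.13, adjusted p = 0.00023). The inhibitor gene *Timp3*, whose product blocks ADAM17 and ADAM10, was counted 671, 566 and 685 times in WT and 1183, 1062 and 1141 times in KO (LFC 0.71, SE 0.06, adjusted p = 8.64e-06). *Timp2* had an LFC of 1.10 (SE 0.10, adjusted p = 2.11e-05). *Timp1* had the largest difference of these genes, from 3, 6 and 7 counts in WT to 184, 202 and 215 in KO (LFC 5.10, SE 0.24, adjusted p = 2.56e-07).

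Markers of spermatocytes and spermatids were mostly lower in KO, as the sperm-surface genes were. Round spermatid markers were lower in 8 of 8 tested genes (median LFC -0.26), against 20.6% of all genes tested, and their summed level was 1871, 1892 and 1870.3 CPM in WT and 1639, 1530.2 and 1541 CPM in KO. Elongating spermatid markers were lower in 12 of 12 (median LFC -0.54, summed 24304 ± 533 CPM in WT and 15598 ± 1628 in KO), and spermatocyte markers in 6 of 8 (median LFC -0.16). The sum of the sperm-surface ADAM genes was 3.16, 3.21 and 3.24 times that of the round spermatid markers in WT and 3.15, 3.06 and 3.01 times in KO. Measured against the elongating spermatid markers it was 0.248, 0.252 and 0.243 times in WT and 0.297, 0.308 and 0.327 times in KO. The difference in the ADAM sum (-19.8%) was nearest to that in the round spermatid sum (-16.4%), beside -11.1% for the spermatocyte markers and -35.8% for the elongating spermatid markers. In the fit single elongating spermatid markers changed by -25.3% (*Gapdhs*) to -43.2% (*Tnp2*). *Prm1*, *Prm2*, *Tnp1* and *Tnp2* changed the most, and *Prm2* alone made 5362 of the 24304 CPM in WT. Spermatogonia markers had 2 higher genes of 7 tested, near the 24.8% of all genes, and 0 lower (0 also at an unadjusted p under 0.05).

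Among somatic markers, 8 of 8 Sertoli genes (median LFC 0.78), 7 of 7 Leydig genes (1.07), 8 of 8 macrophage genes (1.35) and 4 of 5 peritubular myoid genes (0.56) were higher, against 24.8% of all genes tested. Of the 5 endothelial genes 2 were higher and 3 did not pass (median LFC 0.55). The Sertoli markers summed to 916, 956 and 961 CPM in WT and 1414, 1724 and 1687 CPM in KO, the Leydig markers to 840.5, 866 and 849 CPM and to 1822, 2388 and 2211 CPM, and the macrophage markers to 80.8, 86.5 and 86.1 CPM and to 174, 180.0 and 178 CPM. The Sertoli sum was mostly *Clu*, at a mean of 737 of 944 CPM in WT and 1267 of 1608 CPM in KO. *Insl3*, at 225 of 852 CPM in WT and 856 of 2140 CPM in KO, made the largest part of the Leydig rise. The sum of the widely expressed ADAM genes was 0.154 ± 0.0146 times that of the Sertoli markers in WT and 0.124 ± 0.00617 times in KO (SD, n = 3), and 0.171 ± 0.0148 and 0.0939 ± 0.00759 times that of the Leydig markers. Its difference of 37.0% was smaller than those of the Sertoli (70.3%), Leydig (151%) and macrophage (110.1%) sums. It was nearer to those of the peritubular myoid (40.5%) and endothelial (41.3%) sums. These sums join unlike genes. In the fit the 4 higher ADAM genes changed by 53.1% (*Adam9*) to 279% (*Adam23*), and the other 6 tested did not pass. Among the endothelial genes *Kdr* changed by 313% and *Vwf*, at a mean of 22.7 of 37.2 CPM in WT, by 4.18%. Of 5 lymphocyte markers 2 were tested and 0 passed (0 also at an unadjusted p under 0.05), and the 5 summed to between 2.43 and 4.96 CPM in the 6 libraries. The part of cell composition in the ADAM values was not tested.

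**Figure D5:**
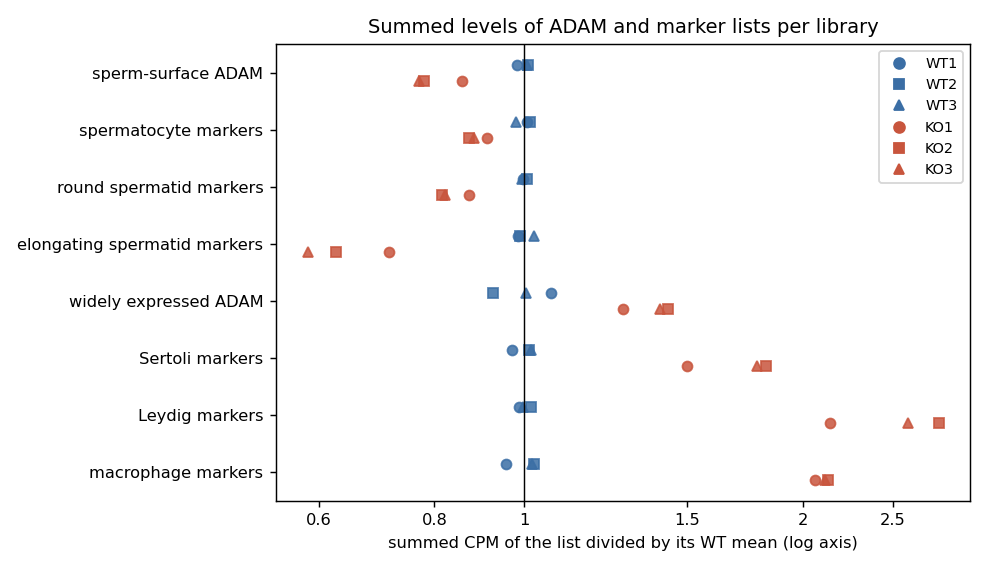
Points are the summed CPM of a list in 1 library divided by the mean of its WT libraries, on a log axis, for WT (blue) and KO (red), with the pair number given by the shape. KO points of the sperm-surface genes lie beside those of the round spermatid markers, and KO points of the widely expressed genes lie above 1 but left of the Sertoli, Leydig and macrophage markers. Peritubular myoid and endothelial markers are not shown.

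The first KO library lay nearest to the WT mean of the 3 KO libraries in 12 of 20 sperm-surface genes and in 7 of 10 tested widely expressed genes. It was the highest KO library in 12 of the 20 and the lowest in 8 of the 10. The same library was the nearest to WT in the summed round spermatid, elongating spermatid, Sertoli and Leydig markers. Within pairs the median LFC of the sperm-surface genes was -0.21, -0.37 and -0.37, and that of the widely expressed genes 0.065, 0.59 and 0.17. Without the first KO library 19 sperm-surface genes were lower and 6 widely expressed genes higher, with *Adam15* and *Adam17* added to the 4.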

How the data were processed

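Whole testes of 3 WT and 3 MLX KO males gave RNA that was sequenced as paired-end reads of 50 bases. The authors aligned them to mm10 with TopHat, and the processing notes also name bcl2fastq 1.8.4, Bowtie2 and DESeq2. The deposited values are whole-number counts per gene symbol and library, not normalized. The counting tool, its annotation and its use of strand are not given in the sources used here. Another 6 columns hold the authors' own comparison (mean, log2 fold change, its error, statistic and p-values) and were not used, and ChIP-Seq samples were not analysed here.

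Of 17933 rows, 2 repeated another and were removed. Counts were tested with edgeR 4.0.16 in R 4.3.3 (filter with a minimum count of 10, TMM, quasi-likelihood test, genotype as the only term, two-sided) with Benjamini-Hochberg adjustment over 14640 genes and a threshold of 0.05. SE is the LFC divided by the square root of the F statistic, and 95% intervals use the fit's degrees of freedom. Counts of 16674678 to 19742726 per library set the precision. Libraries of a genotype were compared for duplicates, and none were found. The code was tested on simulated data. Pairs come from the labels and from the study's statement that littermates were compared: deviations from group means correlated at 0.145, 0.0363 and 0.121 between libraries of the same number and at most at 0.0330 between others. A p-value weighs the genotype difference against the spread among these 6 males within a genotype, estimated with help from all genes tested. Exon lengths, positions, shared 50-base windows and upstream sequence are from RefSeq GRCm38.p6.

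The members, lists and tests were chosen with earlier results of these data known. Each ADAM gene with at least 10 counts on average per library is named with values, as are partner genes past the threshold with the same sign in 3 of 3 pairs, the others being counted, and sequence is shown for the genes with the lowest adjusted p in each group. Alternatives were DESeq2 1.42.0, its size factors, library size alone, upper-quartile factors, no filter, at least 1 CPM in 3 libraries, the replicate block in either tool, a threshold on the unadjusted p, and leaving out each library in turn.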

Additional observations from a re-analysis of the deposited data

How the results depend on the processing

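Over 15 alternatives all 20 sperm-surface genes kept a negative LFC, and 0 were called higher in any. With library size alone, 12 sperm-surface genes were lower in place of 19 and 5 partner and maturation genes were lower in place of 9. The median LFC of the sperm-surface genes was then -0.17, while that of all genes rose from 0.025 to 0.16. A change of size factors moves the LFC of all genes by nearly the same amount. The distance between the medians, -0.33 in both fits, could therefore hardly change and does not measure stability. The calls lost were those of *Adam1b*, *Adam20*, *Adam26a*, *Adam26b*, *Adam29*, *Adam30* and *Adam34*, and *Adam15* and *Adam17* were added to the 4 higher genes. With DESeq2's size factors *Adam21* passed (LFC -0.17, adjusted p = 0.0406). The pair as a replicate block in edgeR gave 19 lower and 4 higher ADAM genes, with 0 calls that differed. DESeq2 lost *Adam26b* without the replicate block (adjusted p = 0.0591) and with it (adjusted p = 0.161). In DESeq2 the block ended the call on *Adam12* (adjusted p = 0.0293 without and 0.100 with it) and changed no other ADAM call. Leaving out each library in turn gave 16 to 19 lower sperm-surface genes, with a median LFC from -0.36 to -0.28, and 4 to 6 higher widely expressed genes, with a median from 0.17 to 0.44. The sign turned in *Adam11*, *Adam22* and *Adam8*, none of which passed the threshold in these fits. *Adam11* was at -0.0059 with DESeq2's size factors and with DESeq2, at -0.0068 with DESeq2 and the block and, with 1 library left out, from -0.0058 (first WT) to 0.062 (first KO). *Adam22* ran from -0.56 (without the first KO) to 0.33 (without the first WT), and *Adam8* from -0.21 (without the third KO) to 0.28 (without the first KO). With 3 males per genotype and 24 to 118 counts a library, *Adam8*, *Adam12* and *Adam19* had the widest intervals apart from *Adam22*.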
